A study of Mus musculus with 12 samples.

Results

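The genes examined were 10 that control the passage of cells through G1: the D-type cyclin genes Ccnd1, Ccnd2 and Ccnd3, the cyclin E gene Ccne1, the kinase genes Cdk4 and Cdk6, and the inhibitor genes Cdkn1b, Cdkn2a, Cdkn2b and Cdkn2c. They were chosen by name, with earlier results of these data known. Every probe set whose single platform symbol was one of these names was taken, which gave 21 probe sets for the 10 genes, out of 22690 probe sets and 12393 tested genes in all. Ccnd2 had 7 probe sets, Ccnd1 and Cdk4 had 3 each, Cdkn1b had 2, and the other 6 genes had 1 each. For the tests across genes, a gene stood for by several probe sets was read from the one with the highest mean level.

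D-type cyclins accumulate in response to growth signals and bind the kinases Cdk4 and Cdk6, and the pairs phosphorylate the retinoblastoma protein. Phosphorylation releases E2F transcription factors, whose targets include the cyclin E gene and many genes of DNA replication, and cyclin E with Cdk2 then drives entry into S phase. The Ink4 inhibitors bind Cdk4 and Cdk6 directly, while p27, the product of Cdkn1b, acts mainly on cyclin E and cyclin A complexes. In epidermis the basal layer divides, and cells stop dividing as they differentiate upwards.

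The study set cultured mouse keratinocytes against skin, and skin of older mice against that of newborns. Total RNA was hybridised to 12 Affymetrix arrays, and the authors' values are log2 expression values made by RMA. The culture group had 5 primary keratinocyte cultures from newborn mice, 2 of a mixed C57, DBA and FVB background and 3 of FVB, each from the pooled cells of 5 mice of 1 genotype that is not named, grown in low-calcium medium for at most 3 days without passage. The 30-day group had 5 skin samples of 30-day-old mice of the mixed background, and the newborn group had 2 skin samples of newborn FVB mice. The labels name no transgene or treatment. Strain and age cannot be told apart within skin. Whether each skin sample is a separate animal is not in the labels. The p-values therefore set group differences only against the spread of these samples, pooled over the groups, and that spread may be technical.

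Some arrays stood apart or lay close together. In 30-day replicate 1 the 3' actin control exceeded the 5' one by a log2 difference of 1.74, while the other 30-day arrays showed 0.67 to 0.82, and its log2 value for 18S rRNA was 8.40, while theirs were 5.19 to 5.90. The actin difference was 0.21 to 0.74 in culture and 0.99 to 1.14 in newborn skin, so this sign of RNA quality also moved with culture against skin, and its part in the results was not tested. Without that array 1 call on the 10 genes changed, for Ccnd1 between culture and 30-day skin. The pairs culture 1 and 2, 30-day 2 and 3, 30-day 4 and 5, and newborn 1 and 2 differed by SDs of 0.16 to 0.20 over genes, against 0.21 to 0.40 for the other pairs within a group. The mean log2 level of 5 keratinocyte markers was 11.12 to 11.43 in culture, 10.13 to 10.36 in 30-day skin and 10.15 to 10.24 in newborn skin. The mean of 6 fibroblast markers was 5.51 to 6.17, 11.21 to 11.68 and 11.51 to 11.59 in the same groups, and that of 4 hair markers 4.84 to 5.01, 12.25 to 12.80 and 11.58 to 11.60, with 3 of the fibroblast and all 4 hair markers below the median of the culture arrays. Differentiated keratinocyte markers, 4 in number, averaged 6.84 to 7.98 in culture, 10.05 to 10.16 in 30-day skin and 10.95 to 11.04 in newborn skin, and 3 melanocyte markers averaged 7.38 to 9.56, 9.63 to 10.06 and 9.03 to 9.07. The groups thus differed in markers of other cell types, whose part in the differences below was not tested, and in such bulk samples fewer cells of a type and less RNA per cell cannot be told apart. A call means an adjusted p below 0.05 in limma, adjusted over all 12393 genes, and differences are given on the log2 scale with standard errors.

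Against newborn skin, cultures had more Cdkn2b and Cdk6 RNA and less Ccnd3, Cdkn1b and Cdkn2c RNA, though Cdk6 turned lower when arrays were centred on epithelial junction genes. Ccnd1, Ccnd2, Ccne1, Cdk4 and Cdkn2a did not pass the test. The inhibitor genes thus went both ways. The called log2 differences ran from -1.63 ± 0.19 for Cdkn2c to 1.62 ± 0.16 for Cdkn2b (SE, 5 cultures and 2 skin samples), which are 3.10-fold lower and 3.08-fold higher. Of the 10 genes 5 were called, or 50%, where 36.5% of all genes were called. The arrays of both groups did not overlap for 7 of the 10, against 47.7% of all genes.

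Set against 30-day skin, cultures were higher in Cdkn2b, Ccne1 and Cdk6 and lower in Cdkn1b, Cdkn2c and Ccnd3, with the same turn for Cdk6 under that centring. The log2 differences ran from -1.27 ± 0.18 for Cdkn1b to 1.05 ± 0.12 for Cdkn2b (SE, n = 5 each). Of the 10 genes 6 were called, or 60%, where 48.3% of all genes were called. The arrays were separate for 4 of the 10, against 36.8% of all genes. Both contrasts use the same cultures, and their gap for a gene is its difference between 30-day and newborn skin. Against the mean of both skin ages 5 of the 10 were called, 2 higher and 3 lower, where 24.6% of all genes were higher, 22.4% lower and 47.0% called in all, and the arrays were separate for 4 of the 10, against 29.1%.

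In 30-day skin Ccnd3 and Ccnd1 were lower than in newborn skin, and Cdkn2b was higher. These were the 3 calls among the 10 genes, or 30%, where 15.8% of all genes were called. The log2 differences were -1.25 ± 0.14, -0.78 ± 0.23 and 0.57 ± 0.16 (SE, 5 and 2 samples). For 7 of the 10 genes the ranges of arrays were separate, as for 35.6% of all genes, with Ccnd2, Ccne1 and Cdk4 also lower and Cdkn1b also higher in every 30-day array but not called. Averaging each close pair of arrays, an alternative added after the data were seen, leaves 1 array of newborn skin and 1 of mixed-strain culture. It ended the calls between skin ages on Ccnd1 (-0.70) and Cdkn2b (0.57), given as log2 differences. Those on Cdk6 (0.42) and Cdkn1b (-0.89) in culture against newborn skin also ended. With so few arrays a call can be lost for any gene, so these losses say little about the genes. Against 30-day skin the culture call on Ccnd3 was lost (adjusted p = 0.125, limma).

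**Figure D1:**
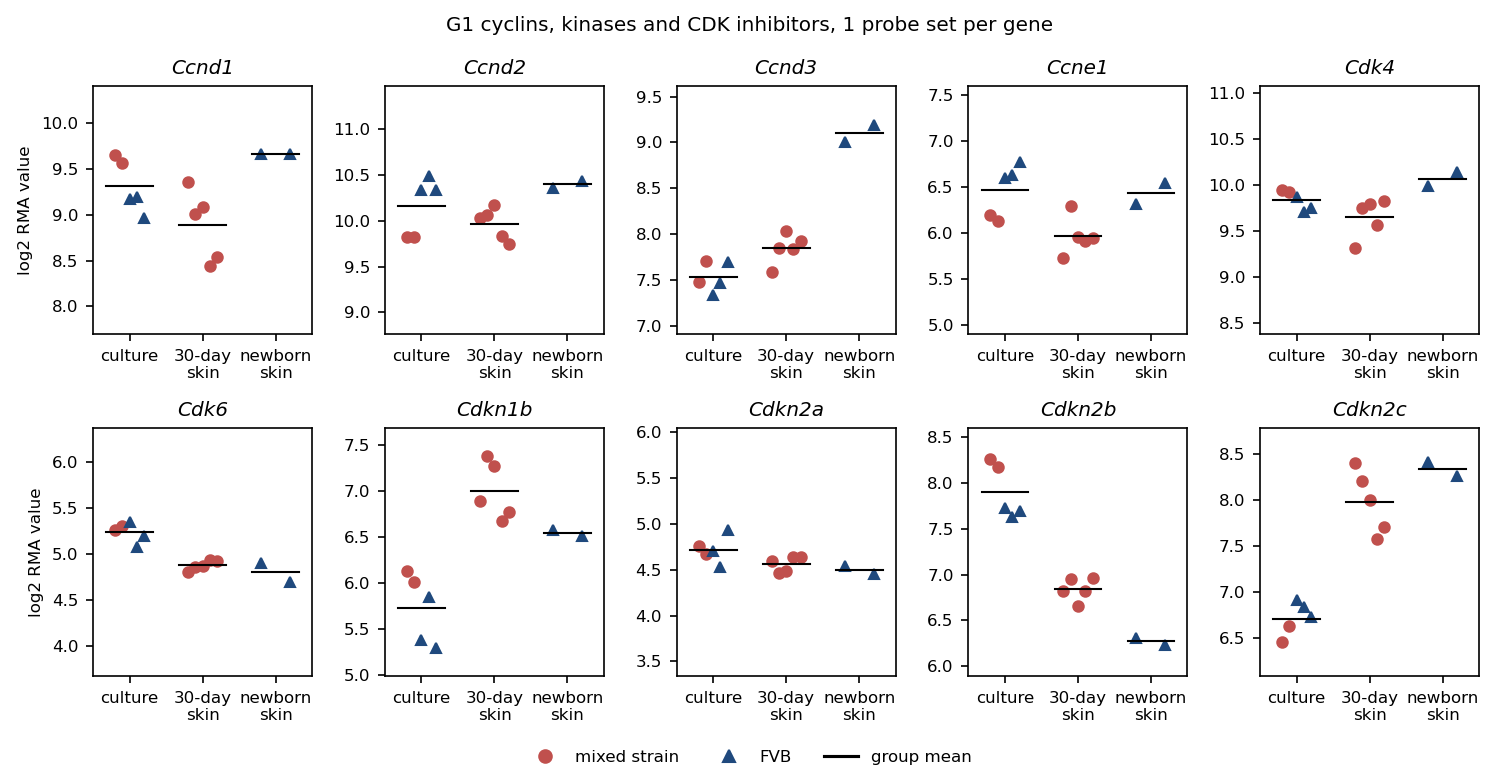
Log2 RMA values (vertical axis, each panel spanning the same log2 range) of the 10 genes in the 5 cultures, 5 samples of 30-day skin and 2 of newborn skin. Points are arrays, circles of mixed strain and triangles of FVB, and lines are group means. Cdkn2b is highest and Cdkn2c lowest in culture, and Ccnd3 is highest in newborn skin.

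**Figure D2:**
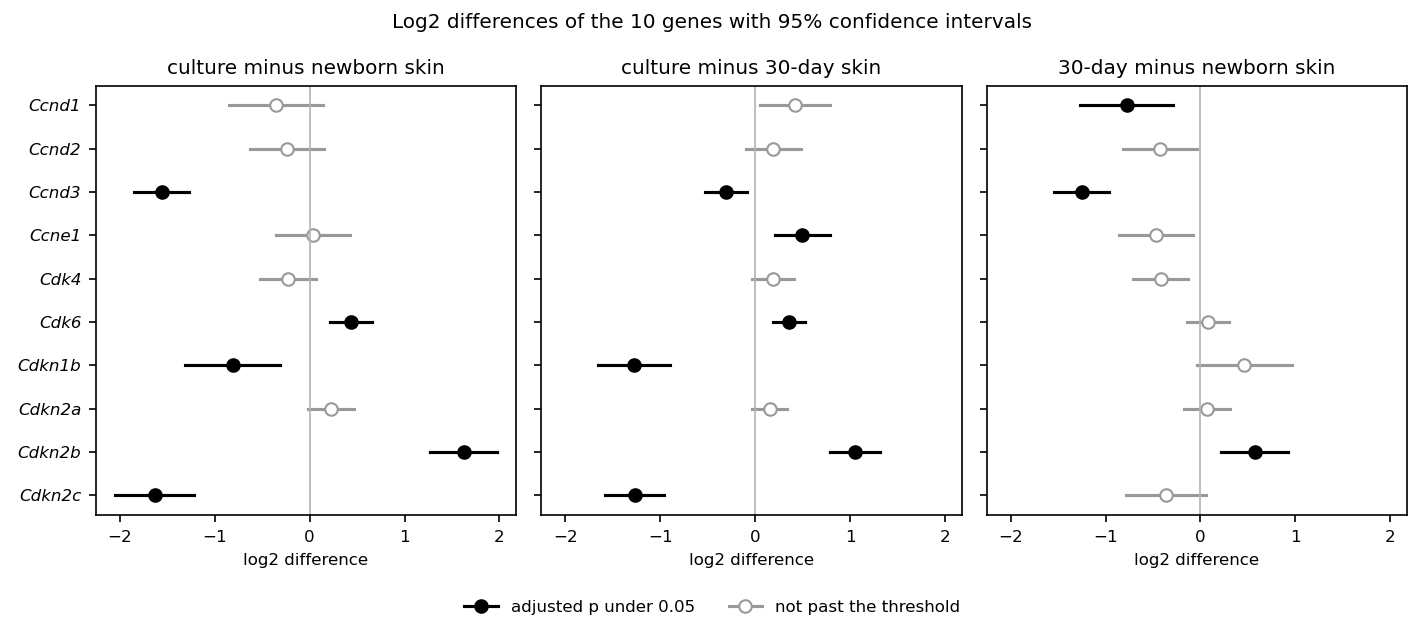
Log2 differences of the 10 genes (horizontal axis) in 3 contrasts, with 95% confidence intervals from limma. Filled points passed an adjusted p of 0.05. Cdkn2b and Cdkn2c lie on opposite sides of 0 in both contrasts with culture.

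Ccnd3, the D-type cyclin gene with the largest differences, was highest in newborn skin. It read 7.48, 7.71, 7.34, 7.47 and 7.70 in the cultures, 7.59, 7.85, 8.03, 7.83 and 7.93 in 30-day skin, and 9.01 and 9.19 in newborn skin (log2 values). Both newborn samples were above every other array, and the cultures overlapped with 30-day skin. Culture was lower than newborn skin by a log2 difference of -1.56 ± 0.14 (SE, adjusted p = 3.75e-07, limma), and 30-day skin was lower than newborn skin by -1.25 ± 0.14 (SE, adjusted p = 2.34e-05, limma). Against 30-day skin the culture difference was -0.31 ± 0.10 (SE, adjusted p = 0.0219, limma), a call that was lost without culture replicate 3 (adjusted p = 0.0608), 30-day replicate 3 (0.0611) or 30-day replicate 5 (0.0526), with centring on array medians (-0.16, adjusted p = 0.194) and with mixed-strain cultures alone (-0.25, adjusted p = 0.156).

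Ccnd1 encodes cyclin D1, a target of growth factor and Wnt signalling. Its representative probe set read 9.65, 9.56, 9.17, 9.19 and 8.96 in the cultures, 9.36, 9.01, 9.08, 8.44 and 8.54 in 30-day skin, and 9.66 and 9.66 in newborn skin (log2 values). The 2 mixed-strain cultures lay just below newborn skin, and the FVB cultures lay within the range of 30-day skin. Skin of 30 days was lower than newborn skin by a log2 difference of -0.78 ± 0.23 (SE, adjusted p = 0.0334, limma), a call that was lost without 30-day replicate 4 (adjusted p = 0.0607), 30-day replicate 5 (0.0661), newborn replicate 1 (0.170) or newborn replicate 2 (0.207). All 3 probe sets of Ccnd1 gave this difference, from -1.16 to -0.78, and all 3 were called when every probe set was tested on its own. Culture was not called against newborn skin (-0.36, 95% interval -0.85 to 0.14). Against 30-day skin the culture difference was 0.42 ± 0.17 (SE, adjusted p = 0.0593, limma), and it passed without 30-day replicate 1 (0.54, adjusted p = 0.0133), without culture replicate 5 (0.51, adjusted p = 0.0318) and with mixed-strain cultures alone (0.72, adjusted p = 0.00799).

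Ccnd2, the cyclin D2 gene, stayed within a narrow range on its representative probe set, the brightest of 7. The cultures read 9.82, 9.82, 10.33, 10.49 and 10.33, 30-day skin read 10.03, 10.06, 10.17, 9.83 and 9.74, and newborn skin read 10.35 and 10.44 (log2 values). Mixed-strain cultures lay within the range of 30-day skin, and FVB cultures lay beside newborn skin. On that probe set no contrast between culture and skin was called, with log2 differences of -0.24 against newborn skin (95% interval -0.62 to 0.15) and 0.19 against 30-day skin (95% interval -0.10 to 0.49). Culture was called higher than 30-day skin with the mean of all 7 probe sets (0.34, adjusted p = 0.0202, limma) and with array-median centring (0.34, adjusted p = 0.044). With mixed-strain cultures alone that difference was -0.14 (adjusted p = 0.389). With epithelial junction centring, culture was called lower than newborn skin (-1.14, adjusted p = 8.66e-05). The difference of 30-day from newborn skin was -0.43 ± 0.18 (SE, adjusted p = 0.136, limma), although every 30-day array was below both newborn ones. Strain and age coincide in these skin samples, and with strain as a covariate it was 0.13 (adjusted p = 0.723, limma).

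Ccne1 encodes cyclin E1, which acts after the D-type cyclins. It read 6.20, 6.12, 6.60, 6.63 and 6.77 in the cultures, 5.72, 6.29, 5.96, 5.91 and 5.94 in 30-day skin, and 6.32 and 6.54 in newborn skin (log2 values). The FVB cultures were above every skin sample, whereas the mixed-strain cultures lay below 30-day replicate 2. Culture was higher than 30-day skin by a log2 difference of 0.50 ± 0.14 (SE, adjusted p = 0.00712, limma), but not when only mixed-strain cultures, which share the strain of that skin, were used (0.20, adjusted p = 0.279), nor with centring on housekeeping genes (0.21, adjusted p = 0.174) or on epithelial junction genes (0.0031, adjusted p = 0.984). Against newborn skin the log2 difference was 0.04 (95% interval -0.35 to 0.42).

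Cdk4 and Cdk6 encode the partner kinases of the D-type cyclins. Cdk4 read 9.94, 9.93, 9.87, 9.71 and 9.76 in the cultures, 9.32, 9.75, 9.80, 9.57 and 9.82 in 30-day skin, and 9.99 and 10.14 in newborn skin (log2 values). Newborn skin held the highest values. The 30-day log2 difference from newborn skin was -0.42 ± 0.14 (SE, adjusted p = 0.0509, limma), just outside the threshold, and passed without 30-day replicate 3 (-0.46, adjusted p = 0.0485) or 30-day replicate 5 (-0.46, adjusted p = 0.0456). The culture differences for Cdk4 were -0.23 from newborn skin (95% interval -0.52 to 0.06) and 0.19 from 30-day skin (95% interval -0.03 to 0.41).

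Cdk6 was dim, with a mean above that of only 24.0% of probe sets, and RMA values carry no detection call. It read 5.27, 5.30, 5.35, 5.08 and 5.205 in the cultures, 4.81, 4.86, 4.87, 4.94 and 4.92 in 30-day skin, and 4.91 and 4.70 in newborn skin (log2 values). Every culture was above every skin sample. The log2 differences of culture were 0.44 ± 0.10 from newborn skin (SE, adjusted p = 0.00379, limma) and 0.36 ± 0.08 from 30-day skin (SE, adjusted p = 0.00142, limma), and both turned to lower, at -0.47 and -0.14, when arrays were centred on epithelial junction genes. Centring on housekeeping genes left 0.23 and 0.071, neither called (adjusted p = 0.199 and 0.544). Without newborn replicate 2 the Cdk6 difference from newborn skin was 0.33 (adjusted p = 0.0914).

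Cdkn1b, the p27 gene, was low in culture. Its representative probe set read 6.13, 6.003, 5.38, 5.84 and 5.29 in the cultures, 6.89, 7.38, 7.27, 6.68 and 6.77 in 30-day skin, and 6.57 and 6.50 in newborn skin (log2 values). All cultures were below all skin samples, and all 30-day samples were above both newborn ones. Culture was lower than 30-day skin by a log2 difference of -1.27 ± 0.18, or 2.41-fold (SE, adjusted p = 2.85e-05, limma), and lower than newborn skin by -0.81 ± 0.23, or 1.75-fold (SE, adjusted p = 0.0133, limma). The call against newborn skin was lost without newborn replicate 1 (adjusted p = 0.0988) or newborn replicate 2 (adjusted p = 0.0724), where the remaining sample is assumed to vary like the other groups. With FVB cultures alone, which match newborn skin in strain, the difference was -1.04 (adjusted p = 0.000878). The other Cdkn1b probe set read between 4.55 and 5.19 on all arrays, was called in no contrast and did not follow the first (r = -0.08 over 12 arrays, given as a description).

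The Ink4 genes Cdkn2a, Cdkn2b and Cdkn2c were measured by 1 probe set each. Cdkn2b encodes p15, known as a target of TGF-beta signalling in keratinocytes, Cdkn2c encodes p18, and Cdkn2a encodes p16 and, from a separate first exon, Arf, which restrains Mdm2. Cdkn2a and Cdkn2b are neighbours on mouse chromosome 4, at chr4:89274473-89294619 and chr4:89306289-89311032, both on the minus strand and 11669 bases apart (GRCm38.p6), and Cdkn2c is at chr4:109660876-109666756 on the same strand. Their sequences before the start are shown because Cdkn2a and Cdkn2b are neighbours, and because Cdkn2b and Cdkn2c differed in opposite directions. Each is the 250 bases before the outermost RefSeq start, read 5′ to 3′ along the gene's strand, at chr4:89294620-89294869 for Cdkn2a, chr4:89311033-89311282 for Cdkn2b and chr4:109666757-109667006 for Cdkn2c (GRCm38.p6). Capitals mark E2F motifs (TTTCCCGC, TTTGGCGC, TTTCGCGC or TTTGCCGC) and GC boxes (GGGCGG), searched on both strands.
Cdkn2a: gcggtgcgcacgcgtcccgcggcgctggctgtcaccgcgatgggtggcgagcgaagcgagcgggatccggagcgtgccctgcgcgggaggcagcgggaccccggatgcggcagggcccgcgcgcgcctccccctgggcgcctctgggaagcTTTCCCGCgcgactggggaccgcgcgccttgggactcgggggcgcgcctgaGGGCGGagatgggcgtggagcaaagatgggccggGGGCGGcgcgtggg
Cdkn2b: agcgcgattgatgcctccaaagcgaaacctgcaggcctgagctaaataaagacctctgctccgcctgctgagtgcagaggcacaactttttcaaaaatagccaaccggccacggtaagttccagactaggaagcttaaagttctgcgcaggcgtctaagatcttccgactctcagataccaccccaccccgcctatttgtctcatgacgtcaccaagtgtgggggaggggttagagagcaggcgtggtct
Cdkn2c: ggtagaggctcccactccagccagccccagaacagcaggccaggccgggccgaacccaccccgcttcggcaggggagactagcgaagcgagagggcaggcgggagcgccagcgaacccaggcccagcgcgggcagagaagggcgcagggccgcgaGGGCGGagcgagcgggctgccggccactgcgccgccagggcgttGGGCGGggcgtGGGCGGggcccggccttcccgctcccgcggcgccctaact
Cdkn2a held 1 E2F match, with its first base at position -99 from the start, and 2 GC boxes, with no base shared by both motifs. Cdkn2b held neither, and Cdkn2c held 3 GC boxes and no E2F match. RefSeq gave 2 windows each for Cdkn2a and Cdkn2c, and only the outermost was searched. Which Cdkn2a product, p16 or Arf, is read from that start was not assigned. Among the 32851 such windows given by RefSeq, 1.86% held an E2F match and 32.7% a GC box. The windows were 78.4%, 53.6% and 77.2% G or C for Cdkn2a, Cdkn2b and Cdkn2c, against a median of 52.4% over all windows. Windows were given for 8 of the 10 genes, and Cdkn2a was the only one of these 8 with an E2F match in the window searched.

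Cdkn2b was highest in culture and lowest in newborn skin. It read 8.25, 8.17, 7.73, 7.63 and 7.69 in the cultures, 6.82, 6.95, 6.66, 6.82 and 6.97 in 30-day skin, and 6.31 and 6.24 in newborn skin (log2 values). No groups overlapped, and the order was the same with FVB cultures or mixed-strain cultures alone. Culture was higher than newborn skin by a log2 difference of 1.62 ± 0.16, or 3.08-fold (SE, adjusted p = 1.92e-06, limma), and than 30-day skin by 1.05 ± 0.12, or 2.07-fold (SE, adjusted p = 5.82e-06, limma). Both calls were kept under all 28 alternatives, with values from 0.71 to 1.80 and from 0.55 to 1.37. Not all of these could move the values, as Cdkn2b has 1 probe set, which the probe set alternatives reuse. Strain as a covariate and strain-matched cultures are also the same fit for these 2 contrasts. The age difference of Cdkn2b was smaller, at 0.57 ± 0.16 (SE, adjusted p = 0.0293, limma). It fell to 0.05 with strain as a covariate (adjusted p = 0.909, limma). Strain and age coincide in skin, so that fit takes the strain difference of the cultures, 0.53, off the age difference. The age call was lost without 30-day replicate 2 (adjusted p = 0.0555, limma) or 30-day replicate 5 (0.0595). It was also lost without newborn replicate 1 (0.61) or newborn replicate 2 (0.54), given as log2 differences.

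Cdkn2c went the other way. It read 6.45, 6.63, 6.92, 6.83 and 6.73 in the cultures, 8.41, 8.21, 8.005, 7.58 and 7.70 in 30-day skin, and 8.42 and 8.27 in newborn skin (log2 values). Every culture was below every skin sample, while the skin groups overlapped. Culture was lower than newborn skin by a log2 difference of -1.63 ± 0.19, or 3.10-fold (SE, adjusted p = 1.01e-05, limma), and than 30-day skin by -1.27 ± 0.15, or 2.41-fold (SE, adjusted p = 4.75e-06, limma). These calls were also kept under all 28 alternatives, from -2.54 to -1.46 and from -1.77 to -1.12, with the same repeats among them. Between 30-day and newborn skin the difference was -0.36 (95% interval -0.78 to 0.05).

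Cdkn2a was the dimmest of the 10 genes, with a mean above that of only 14.1% of probe sets. It read 4.76, 4.67, 4.70, 4.52 and 4.93 in the cultures, 4.59, 4.46, 4.49, 4.64 and 4.64 in 30-day skin, and 4.53 and 4.45 in newborn skin (log2 values). All groups overlapped with one another, and no contrast was called, though the culture differences depended on scaling: they were called higher with array-median centring (0.40 and 0.30 from newborn and 30-day skin, adjusted p = 0.00965 and 0.0073) and lower with epithelial junction centring (-0.69 and -0.34, adjusted p = 0.000903 and 0.0185). The log2 differences of culture were 0.22 from newborn skin (95% interval -0.02 to 0.47) and 0.15 from 30-day skin (95% interval -0.03 to 0.34). The probe set was not assigned to either of the transcripts of Cdkn2a.

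Within culture, 3 of the 10 genes differed between the mixed-strain and FVB cultures, or 30%, where 9.84% of all genes were called. Other markers moved with strain too, with 3 of 3 melanocyte markers (median log2 difference 1.97) and 3 of 6 fibroblast markers (median 0.41) higher and 2 of 4 differentiated keratinocyte markers (median -0.92) lower in mixed-strain cultures. The actin difference was 0.21 and 0.35 in mixed-strain cultures and 0.56 to 0.74 in FVB cultures, and the part of these in the strain differences was not tested. Cdkn2b was higher in mixed-strain cultures, at 8.21 ± 0.06 (SD, n = 2) against 7.68 ± 0.05 in FVB cultures (SD, n = 3), a log2 difference of 0.53 ± 0.11 (SE, adjusted p = 0.00898, limma). Ccnd2 was lower, at 9.82 ± 0.0019 in mixed-strain cultures against 10.38 ± 0.09 in FVB cultures (SD, n = 2 and 3), a difference of -0.56 ± 0.13 (SE, adjusted p = 0.0136, limma). Of its 7 probe sets 1 was called between strains, with differences from -0.62 to 0.42, and the mean of all 7 gave -0.28 (adjusted p = 0.245). Ccne1 was lower too, at 6.16 ± 0.05 in mixed-strain cultures against 6.67 ± 0.09 in FVB cultures (SD, n = 2 and 3), a difference of -0.51 ± 0.15 (SE, adjusted p = 0.0404, limma). The arrays of both strains did not overlap for 7 of the 10 genes, a state that 45.9% of all genes share with so few arrays. No strain call held with each array left out in turn. Leaving out culture replicate 1 or 2 leaves 1 mixed-strain culture, and strain calls over all genes then fell as well. Without culture replicate 1 or replicate 2, the difference had an adjusted p of 0.128 or 0.0576 for Cdkn2b, 0.125 or 0.105 for Ccnd2 and 0.187 or 0.232 for Ccne1. For Ccnd2 it was also lost without culture replicate 4 (0.0541). For Ccne1 it was lost without culture replicate 3 (0.0667), 4 (0.0853) or 5 (0.0908) and without 30-day replicate 3 (0.0523) or 5 (0.0522), and strain in culture coincides with the close pair of replicates 1 and 2. Ccnd1 and Cdkn1b differed by 0.49 and 0.56 without passing (adjusted p = 0.167 and 0.0993, limma), but 2 of the 3 Ccnd1 probe sets were higher in mixed-strain cultures when tested on their own (0.79 and 0.63), as was their mean (0.64, adjusted p = 0.0337).

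Where a gene had several probe sets, the bright ones mostly behaved alike. The Ccnd1 and Cdk4 probe sets correlated with the representative one at r = 0.91 to 0.97 over the 12 arrays, which share their group structure. For Ccnd2, 3 other probe sets with group means from 8.57 to 10.44 gave r = 0.88 to 0.92, and that with group means from 7.12 to 7.69 gave 0.68. The remaining 2, with group means between 4.44 and 5.24, gave r = 0.32 and -0.39. Tested on their own, 2 of the 7 Ccnd2 probe sets were higher in culture than in 30-day skin, by 0.56 and 0.54, 5 were not called, and 1 of the 7 was lower in 30-day than in newborn skin, by -0.51. For Cdk4, 2 of 3 probe sets were lower in 30-day than in newborn skin, and 1 of 3 was higher in culture than in 30-day skin. These calls rest on the less bright probe sets, and the brightest of each gene, used in the gene tests, was not called in these contrasts. The suffix x_at, which the bright Cdk4 probe set carries, marks probes that can match other transcripts.

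**Figure D3:**
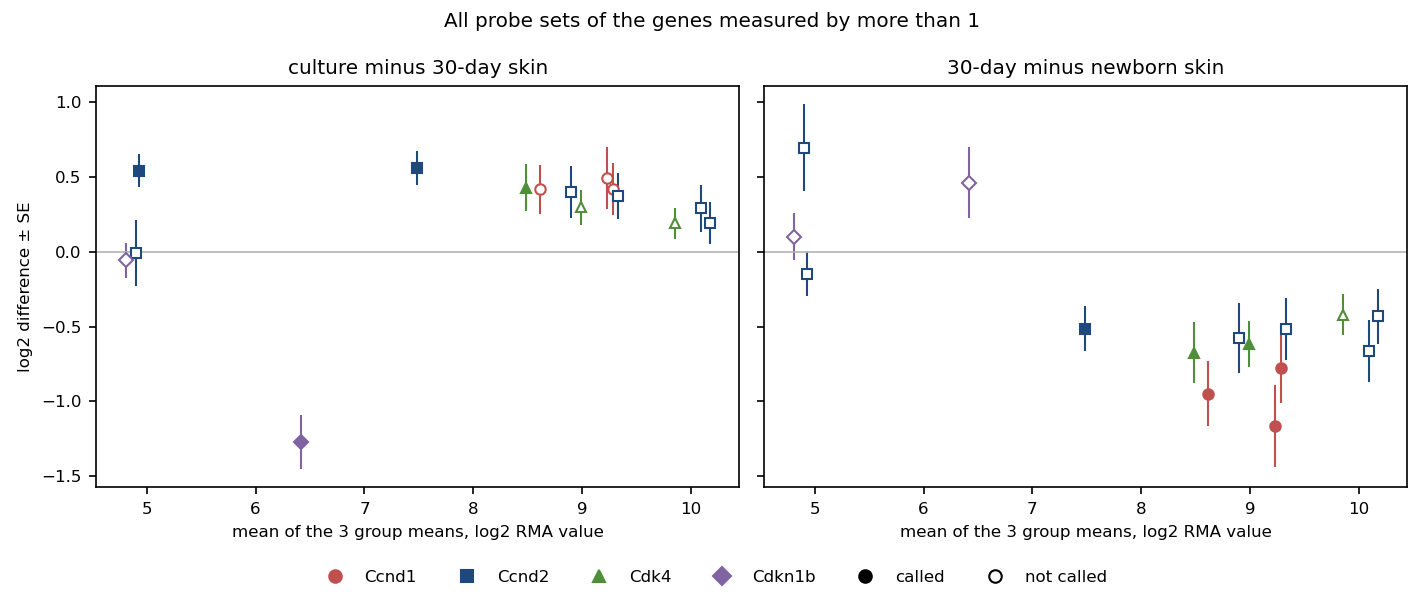
Log2 differences with standard errors (vertical axis) against the mean level of each probe set (horizontal axis, log2 RMA value) for the probe sets of Ccnd1, Ccnd2, Cdk4 and Cdkn1b. Filled symbols passed when every probe set was tested on its own. The 3 Ccnd1 probe sets are all lower in 30-day than in newborn skin, and the 2 Cdkn1b probe sets are far apart in the contrast with culture.

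Of the inhibitor genes beside the members, Cdkn1c and Cdkn2d fell in culture and Cdkn1a rose, or fell with the others when arrays were centred on epithelial junction genes. Cdkn1c, the imprinted p57 gene, averaged 5.23 in culture, 6.88 in 30-day skin and 9.61 in newborn skin (log2 values). It was lower in culture by a log2 difference of -4.38 ± 0.21 and in 30-day skin by -2.73 ± 0.21, both against newborn skin (SE). Cdkn2d, the p19 Ink4d gene, was lower by -1.11 ± 0.15 in culture and -0.55 ± 0.15 in 30-day skin, whereas Cdkn1a, the p21 gene and a p53 target, was higher in culture by 0.48 ± 0.17 (SE). Cdkn1a was not called against 30-day skin (0.32, adjusted p = 0.0556), and its call against newborn skin was lost with housekeeping centring and with close arrays averaged. Of 3 measured genes of this list 1 was higher and 2 lower against newborn skin, with a median difference of -1.11, where 17.9% of all genes were higher and 18.6% lower, with a median of 0.01.

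Among 9 other G1 cyclin, kinase and activator genes, 2 were higher in culture than in newborn skin and 0 lower, and 4 were lower in 30-day than in newborn skin and 0 higher. The 2 higher in culture, Cdk7 and Ccndbp1 (0.66), became 1 with strain as a covariate, 1 with close arrays averaged and 1 beside 1 lower with housekeeping centring, and 4 were called higher without 30-day replicate 1. The 4 lower in 30-day skin became 0 under each of strain as a covariate, close arrays averaged and housekeeping centring. Cdk7, the kinase that activates other CDKs, rose by a log2 difference of 0.74 ± 0.13 in culture and fell by 0.49 in 30-day skin, where Ccnh, its cyclin, fell by 0.48 and Ccne2, which encodes cyclin E2, fell by 0.49. Of 10 genes of Rb and E2F proteins 2 were lower in culture than in newborn skin and 0 higher, namely Rb1 (-0.65) and E2f8 (-0.60), and 1 was lower in 30-day skin, Tfdp1 (-0.55), a dimer partner of E2F proteins, whose call was lost with strain as a covariate or close arrays averaged. Between 30-day and newborn skin 9.84% of all genes were lower and 5.91% higher. In culture against newborn skin 17.9% of all genes were higher and 18.6% lower, so the 2 of 9 higher and 2 of 10 lower lay near those shares.

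The E2F targets of S phase entry were mostly lower in 30-day than in newborn skin and in mixed-strain than in FVB cultures. Of 17 measured, 3 were higher and 4 lower in culture against newborn skin, with a median log2 difference of -0.18, and these counts became 0 and 7 with housekeeping centring and 0 and 3 with close arrays averaged. Over all genes 17.9% were higher and 18.6% lower in culture against newborn skin. Mki67, a gene of dividing cells, was lower in that contrast by -1.76 ± 0.29 (SE). Against 30-day skin 11 were higher and 1 lower in culture (median 0.49), where 26.5% of all genes were higher and 21.9% lower (median 0.02), and this became 5 and 1 with strain as a covariate, 7 and 2 with housekeeping centring and 4 and 4 with epithelial junction centring. In 30-day against newborn skin 0 were higher and 11 lower (median -0.78), or 0 and 2 once strain entered the fit, and likewise 0 and 2 where close arrays were averaged. The fit with strain takes the strain difference of the cultures off the skin difference. Mcm5, Mcm7 and Mcm2, which encode helicase subunits, fell by 1.09, 1.03 and 1.03. The mean of the 17 genes was 7.70 and 7.64 in mixed-strain cultures, against 8.11, 8.12 and 8.04 in FVB cultures (log2 values), with 0 higher and 10 lower where 3.18% and 6.66% of all genes were higher and lower. It was 7.30 to 7.50 in 30-day skin and 8.11 to 8.18 in newborn skin. The strain counts of this list were not recounted under the alternatives, and they rest on the 2 mixed-strain cultures, a close pair of arrays. The list thus moved between strains in the same direction as Ccne1 and Ccnd2, and its part in their differences was not tested.

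**Figure D4:**
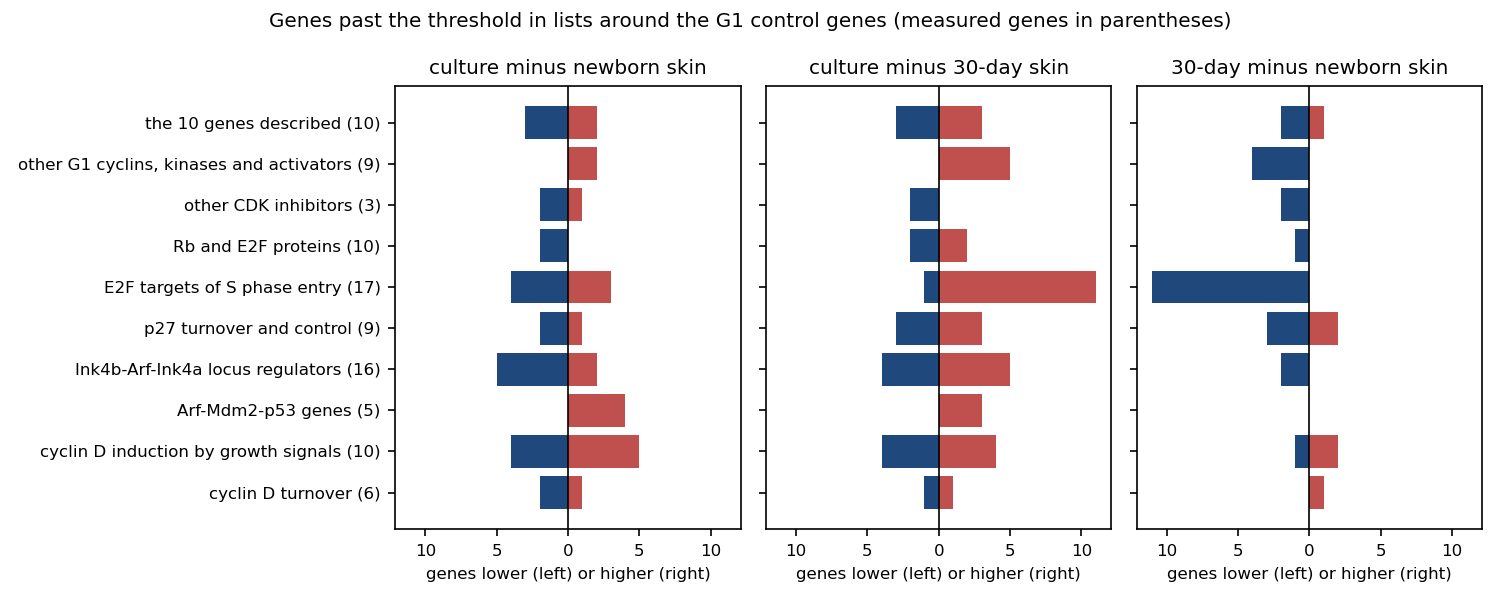
Number of genes past the threshold in each list (horizontal axis, lower to the left and higher to the right) in 3 contrasts, with the number of measured genes in parentheses. The E2F targets were mostly higher in culture than in 30-day skin, 11 against 1, and mostly lower in 30-day than in newborn skin, 11 against 0.

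Genes that act on the members' RNA or protein were mixed. Of 9 genes of p27 turnover and control 1 was higher and 2 lower in culture than in newborn skin: Cops5, which encodes a COP9 signalosome subunit, by 0.69, Foxo1, a transcription factor, by -1.15, and Skp2, whose product marks p27 for destruction, by -0.79. Skp2 and Cks2 were lower in 30-day than in newborn skin (-0.73 and -0.74), and Foxo3 was higher (0.66), with 2 higher and 3 lower in all, where 5.91% of all genes were higher and 9.84% lower. These became 0 and 0 both with strain as a covariate and with close arrays averaged, 1 and 4 without 30-day replicate 1, and 0 and 6 with epithelial junction centring. Of 16 regulators of the locus of Cdkn2a and Cdkn2b 2 were higher and 5 lower in culture against newborn skin, with Twist1, a mesenchymal transcription factor, at -2.84, Id1 at -1.40 and Ets1 at 0.93. Of 10 genes of cyclin D induction 5 were higher and 4 lower, with Myc at 1.98, Fos at -2.14 and the Wnt target Axin2 at -1.59. Among 5 genes around Arf, Mdm2 and p53, 4 were higher and 0 lower, with Mdm2, a p53 target whose product degrades p53, at 2.41, Npm1 at 0.87 and Tbrg1 at 0.48. Of 6 genes of cyclin D turnover 1 was higher and 2 lower, with Usp2, which encodes a deubiquitinase of cyclin D1, at -0.78, Ambra1 at -0.42 and Fbxo4 at 0.43. The medians of these 5 lists were -0.15, -0.01, 0.29, 0.48 and -0.06, beside 0.01 over all genes, and 17.9% of all genes were higher and 18.6% lower. Housekeeping centring made the higher and lower counts 1 and 3, 1 and 6, 3 and 4, 2 and 0, and 0 and 3 in the same order, and averaging close arrays made them 1 and 2, 1 and 4, 2 and 4, 2 and 0, and 0 and 1. Centring on epithelial junction genes shifted the median of all genes to -0.90 in this contrast, and the higher and lower counts then became 0 and 8, 0 and 14, 1 and 6, 1 and 3, and 0 and 5 for the same lists. They became 0 and 7 for the other G1 cyclins and kinases, 0 and 10 for the Rb and E2F proteins and 0 and 14 for the E2F targets.

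The genes most like each member were read from Pearson correlations of log2 values over the 12 arrays, which share their group structure, so that a high r mainly means a like order of groups. Cdkn2b was most like Plekhb2 (r = 0.99) and Arg1, the arginase gene (r = 0.99). Cdkn2c was most like Pkia (r = 0.99) and Lpl, the lipoprotein lipase gene (r = 0.98), which averaged 7.59 in culture, 10.61 in 30-day skin and 10.95 in newborn skin. Ccnd3 was most like Arhgef7 and Osr2 (both r = 0.98), and Cdkn1b was most like Hexa (r = 0.96) and Oat (r = 0.95). For Ccnd2 the closest were Pcbd2 and the DNA ligase gene Lig1 (both r = 0.96), for Ccnd1 Sec23a (r = 0.94) and Slc30a5 (r = 0.91), for Ccne1 Ddx5 (r = 0.96) and Fau (r = 0.95), for Cdk4 Banf1 and Rpl37a (both r = 0.91), and for Cdk6 Htt and Mak16 (r = 0.96 for each, or 0.965 and 0.964). For Cdkn2a, which varied by less than any other member, they were Ackr2 (r = 0.91) and Shroom1 (r = 0.90).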

How the data were processed

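The deposited values are log2 expression values made by the authors with RMA, per the submitters' processing notes. Its version, background step and probe annotation are not stated in the sources used here. They ran from 2.89 to 13.59 with array medians from 5.86 to 6.01, and without scanner files they carry no detection call, so their precision is limited by the number of arrays. Of 22690 probe sets 20380 had 1 platform symbol, 691 had several and 1555 had none. Probe sets with several or no symbols and 64 control probe sets were left out, and each of 12393 genes was represented by its probe set with the highest mean. Samples were grouped by the labelled source, age and strain.

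Contrasts were fitted with lmFit and eBayes in limma 3.58.1 (R 4.3.3), 2-sided, all 12 arrays sharing the spread, with p-values adjusted by Benjamini-Hochberg across the 12393 genes and called below 0.05. The contrast of culture strains had its own fit with strain as groups. The contrasts of culture with each skin group and between skin ages were tested on simulated data. The strain contrast, the contrast with the mean of both skin ages and the alternatives were not. Python 3.11.15 with pandas 2.3.3, numpy 2.4.6 and matplotlib 3.10.9 handled promoter windows and figures. Replicate numbers were not taken to pair samples. The 9 same-numbered pairs had correlations of residuals from -0.284 to 0.230, and pairs of unlike number gave -0.230 to 0.218. The residuals of the 2 newborn arrays mirror each other, and such values cannot exclude shared material or handling. All 10 members are named. From each other list up to 3 called genes with the largest difference may be named for each of the contrasts of culture and of 30-day skin with newborn skin, and for each member the 2 genes with the highest correlation. Members and lists were chosen with earlier results of these data known, and 85 of the 96 symbols in the other lists were measured. Scaling, probe set rule, filter, weights, strain, replicate block and leaving out arrays were varied. As strain and age coincide in skin, strain as a covariate is estimated from the 2 mixed-strain and 3 FVB cultures alone. Promoter windows are RefSeq sequences of GRCm38.p6.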

Additional observations from a re-analysis of the deposited data

How the results depend on the processing

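The calls on Ccnd3, Cdkn2b and Cdkn2c in culture against newborn skin, on Cdkn1b, Cdkn2b and Cdkn2c against 30-day skin, and on Ccnd3 between skin ages kept their direction and passed under all 28, 28 and 27 alternatives. Some alternatives repeat others: for genes with 1 probe set, those of the probe set reuse the same values. Strain as a covariate and strain-matched cultures are the same fit for culture against each skin group. The other Cdkn1b probe set, tested on its own against 30-day skin, was not called (-0.06, adjusted p = 0.741, limma). The other calls on single genes in the contrasts of culture with each skin group, of skin ages and of strains did not hold under each alternative, and the cause was not tested. Both contrasts with newborn skin rest on its 2 samples and the strain contrast on 2 mixed-strain cultures, and both of these are close pairs. Cdk6 and Cdkn2a lie near the bottom of the range of values, where no detection call is given.

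Scaling moved the median of all genes from about 0 to 0.19, 0.17 and 0.02 with array medians, to -0.90, -0.48 and -0.42 with 20 epithelial junction genes and to -0.19, -0.27 and 0.07 with 13 housekeeping genes, for culture against newborn skin, culture against 30-day skin and 30-day against newborn skin. The split of higher and lower calls over all genes was 2223 and 2299 for culture against newborn skin, 3876 and 1727 with array medians, 250 and 10595 with junction genes and 1268 and 3380 with housekeeping genes. Against 30-day skin it was 3280 and 2709, then 4909 and 1983, 963 and 8396, and 1799 and 6134 in the same order. Between skin ages it was 732 and 1220, then 806 and 1096, 252 and 6160, and 820 and 778.

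Counts among the 10 genes moved as follows. With junction centring 1 was higher and 9 lower in culture against newborn skin, 1 and 5 against 30-day skin, 1 and 9 against the mean of both, 0 and 6 between skin ages and 0 and 0 between strains. Over all genes that centring called 499 higher and 10019 lower against the mean of both, and 476 either way between strains. With housekeeping centring 1 was higher and 5 lower against newborn skin, and 1 was higher against 30-day skin and 1 against the mean of both. With array medians 7 were higher in culture against 30-day skin and 4 against the mean, where 4909 and 5075 of all genes were higher. Quantile normalisation again gave 1 lower between skin ages and 1 lower between strains. Without the dimmest 40% of genes, which drops Cdk6 and Cdkn2a, 1 was higher against newborn skin and 1 against the mean. The mean of all probe sets gave 6 higher against 30-day skin and 2 higher and 1 lower between strains, as did the probe set with the largest variance between strains (2 and 1). Array weights gave 4 lower between skin ages and 3 higher between strains. Calls over all genes then rose from 1952 to 3249 and from 1219 to 2894. Strain as a covariate gave 0 higher between skin ages. Fitting only the groups compared gave 3 higher between strains, and could not be run for the mean of both skins. Over all genes that fit called 1863 between strains, against 1219. Averaging close arrays, chosen after seeing the data, left 1 array of newborn skin and 1 of mixed-strain culture. Fewer members were then called in the contrasts with these groups, which so few arrays can give for any gene. A threshold of 0.01 gave 0 higher and 1 lower between skin ages and 0 lower between strains. Strain-matched cultures apply to the contrasts with each skin group alone.

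With the replicate number as a block, which was not taken to pair these samples, the age contrast had 1 lower call and the strain contrast 0 higher and 1 lower. Under the block Cdkn1b in culture against newborn skin was -0.57 (limma adjusted p = 0.0887), Ccne1 turned to -0.096, and between strains Ccnd1 turned to -0.0041 and Cdkn2a to 0.064.

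Leaving out 1 array at a time gave 1 to 2 higher and 2 to 3 lower for culture against newborn skin, 3 to 4 and 2 to 3 against 30-day skin, and 2 to 3 and 3 to 3 against the mean. It gave 0 to 1 higher and 1 to 3 lower between skin ages, and 0 to 1 and 0 to 2 between strains. Over all genes the strain calls were 886, 739 and 1232 without culture replicate 3, 4 or 5, against 1219. Leaving out culture replicate 1 or 2 leaves 1 mixed-strain culture, and strain calls then fell over all genes too. Directions turned for these log2 differences. In culture against newborn skin, Ccne1 turned to -0.87 with junction centring, -0.17 with housekeeping centring, -0.042 with array weights, -0.0060 without culture replicate 4, -0.042 without culture replicate 5 and -0.075 without newborn replicate 1, and leaving out 1 array gave -0.075 to 0.15. Cdk6 turned to -0.47 and Cdkn2a to -0.69 with junction centring, and Ccnd2 to 0.029 with the mean of probe sets and 0.69 with the most variable one. In culture against 30-day skin, junction centring turned Ccnd1 to -0.075, Ccnd2 to -0.30, Cdk4 to -0.31, Cdk6 to -0.14 and Cdkn2a to -0.34. Housekeeping centring turned Ccnd2 to -0.093, Cdk4 to -0.095 and Cdkn2a to -0.13. Ccnd2 also turned to -0.0098 with the most variable probe set and to -0.14 with strain as a covariate or strain-matched cultures. Between skin ages, junction centring turned Cdk6 to -0.33 and Cdkn2a to -0.34, and leaving out newborn replicate 2 turned Cdk6 to -0.023, within -0.023 to 0.18 over the arrays left out. Ccnd2 turned to 0.70 with the most variable probe set. Strain as a covariate turned Ccnd2 to 0.13, Ccne1 to 0.042 and Cdkn1b to -0.10. Between strains Ccnd2 turned to 0.42 with the most variable probe set, and Ccnd3 to -0.021 without culture replicate 2, within -0.021 to 0.21 over the arrays left out. Cdkn2a, at -0.0004, turned to 0.0047 with junction centring, 0.030 with array weights, 0.044 without culture replicate 2 and 0.10 without culture replicate 5.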

Other observations

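Some genes around the G1 machinery differed in directions of their own. Of the E2F targets, Rrm1, which encodes the large subunit of ribonucleotide reductase, averaged 9.14 in culture, 7.88 in 30-day skin and 8.22 in newborn skin (log2 values), higher in culture than in newborn skin by a log2 difference of 0.92 ± 0.31 (SE, adjusted p = 0.0326, limma), a call lost with housekeeping or epithelial junction centring and with close arrays averaged. Tk1, the thymidine kinase gene, averaged 7.29, 7.33 and 8.05 in the same groups and was lower in culture than in newborn skin by -0.77 ± 0.12 (SE, adjusted p = 0.00016, limma). Among genes of cyclin D induction, Egfr and Lef1, which encode the EGF receptor and a Wnt pathway transcription factor, were higher in 30-day than in newborn skin by log2 differences of 0.48 ± 0.14 and 0.56 ± 0.17, while Fos was lower by -1.17 ± 0.20 (SE). Twist1 and Phc2, which encodes a polycomb protein, were lower in 30-day than in newborn skin by -1.71 ± 0.23 and -0.53 ± 0.13 (SE). With close arrays averaged, 0 and 0 genes of cyclin D induction and 0 and 1 locus regulators were called higher and lower between skin ages. With strain in the fit the counts were 2 and 0 for cyclin D induction and 1 and 1 for the locus regulators. Strain and age cannot be told apart in these skin values.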
